A study of Mus musculus with 4 samples.

Results

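The cells described here are 180 autonomy thymocytes that carried one and the same unproductive T cell receptor beta (TRB) rearrangement of the segments TRBV4 and TRBJ2-3. They were 180 of 4414 autonomy cells, and of 8641 cells of both libraries, that had at least 1000 UMIs (unique molecular identifiers, which count captured RNA molecules). They were chosen by measured values, the receptor contigs: the rule took the autonomy V(D)J contigs called TRBV4 and TRBJ2-3 and not productive, and kept the barcodes with the commonest nucleotide CDR3, the stretch that spans the V to J junction. Of 7 such CDR3s the commonest was in 182 barcodes, and the next ones were in 10 and 8. Of the 182 barcodes, 2 had too few UMIs and were left out. The same CDR3 was found in 0 of 4273 turnover V(D)J barcodes, which allows a share of up to 0.0702%.

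The study compared thymocytes of wild-type mouse thymus grafts, taken 28 days after transplantation, in 2 conditions. In turnover, progenitors arriving from outside replace the resident cells, and in autonomy the graft keeps producing T cells from cells it already holds. The sort was labelled as DN3-DN4 (double negative), ISP (immature single positive) and double positive cells, and the labels gave neither the host strain nor the age or number of animals. Each condition had 1 gene expression library made from the 5′ end of transcripts and 1 matched library of rearranged receptor chains. There was therefore no spread between animals and no test: every interval below is 95%, covers counting error only, and takes cells and UMIs as independent, although the cells share a rearrangement. The libraries had 31 barcodes in common, of which 0 belonged to the TRBV4-TRBJ2-3 cells. Those 180 cells held 442924 UMIs and the 4234 other autonomy cells 15817460, with medians of 2194 and 2444 UMIs per cell. Among the other cells 266 had over 10000 UMIs, against 1 of the TRBV4-TRBJ2-3 cells, so summed levels of the other cells lean towards large cells.

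A developing T cell first joins D to J and then V to DJ segments at the TRB locus, with bases trimmed and added at random at each joint. When the joint is out of frame or holds a stop codon, no beta chain is made from that allele, and the cell can still rearrange its other allele. A beta chain that pairs with the pre-T alpha chain drives division into the CD4 CD8 double positive stage, where the alpha locus (TRA) is rearranged. Junctions are therefore used as inherited tags, and the alpha chains of cells that share a TRB junction can differ. Joining a V segment to the second J cluster removes the DNA that holds Trbc1, the first of the 2 constant region genes.

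The junctions that the results turn on are the shared unproductive one and the productive one that was found beside it most often. They are shown from the deposited contig tables, 5′ to 3′, with 12 bases in capitals that open most productive CDR3s of the same V segment. No germline sequence was aligned.
TRBV4-TRBJ2-3 unproductive: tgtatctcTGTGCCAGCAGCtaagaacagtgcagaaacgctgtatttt
TRBV19-TRBJ2-4 productive: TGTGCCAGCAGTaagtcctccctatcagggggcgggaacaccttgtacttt
The 12 capital bases of the first sequence opened 278 of 340 productive TRBV4 CDR3s of both libraries, but here they start at base 9 of 48. From there 40 bases remain, which is not a multiple of 3, and codon 5 of the TRBV4 frame is the stop codon TAA. The last 6 bases, TATTTT, also ended 671 of 671 productive TRBJ2-3 CDR3s of both libraries. The productive CDR3 has 51 bases, and its 12 capitals opened 419 of 532 productive TRBV19 CDR3s of both libraries. All 182 unproductive contigs were full length, 0 had a D segment call, and 181 were joined to the constant region TRBC2. The single other candidate CDR3 of the same length differed from the shared one at 22 bases.

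Most TRBV4-TRBJ2-3 cells had no productive TRB chain in the deposited table. One was listed in 33 of 180 (18.3%, 13.0 to 24.8), against 3174 of 4234 other autonomy cells (74.96%, 73.6 to 76.3). Among 522 other autonomy cells with a different unproductive TRB chain the share was 41.6% (37.3 to 45.9). Of the 33 productive chains, 30 were the same TRBV19-TRBJ2-4 chain printed above, which was in 28 of 4234 other cells (0.661%). The 3 remaining cells had 3 different chains, TRBV12-2-TRBJ2-7, TRBV3-TRBJ2-5 and TRBV12-1-TRBJ2-5, and of these TRBV3-TRBJ2-5 was also in 40 other cells. No TRBV4-TRBJ2-3 cell had 2 productive TRB chains, against 309 of 4234 others (7.30%).

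A second kind of TRBV19 contig was listed in 137 of the 147 cells without a productive chain (93.2%, 87.8 to 96.7). It joined TRBV19 to the constant region TRBC2, but its J call was TRAJ50, a segment of the alpha locus, and it was listed as spanning several loci, with no CDR3. It was found in 143 of 180 TRBV4-TRBJ2-3 cells (79.4%, 72.8 to 85.1) and in 49 of 4234 others (1.16%, 0.857 to 1.53). Either TRBV19 contig was present in 170 of 180 (94.4%, 90.02 to 97.3) and in 75 of 4234 others (1.77%, 1.40 to 2.22), and both were listed in 3 of the 180. Because this contig has no CDR3, whether it holds the junction of the productive TRBV19-TRBJ2-4 chain was not tested. The 3 cells with another productive chain each carried it too, with 8, 22 and 10 UMIs.

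**Figure D1:**
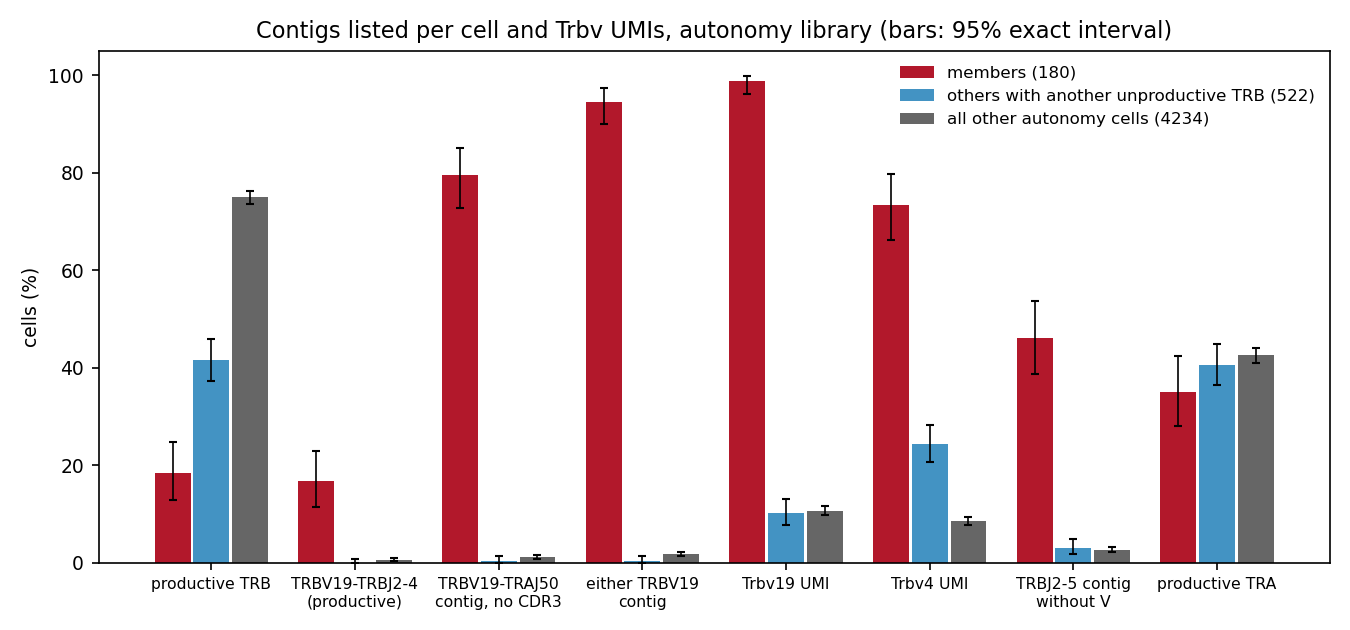
Percent of cells (y axis) with each kind of contig or with a UMI of Trbv19 or Trbv4, in the TRBV4-TRBJ2-3 cells (members, red), in other autonomy cells with another unproductive TRB chain (blue) and in all other autonomy cells (grey); bars are 95% exact intervals. A TRBV19 contig of either kind was in 94.4% of members and 1.77% of the others, while a productive TRB was listed in 18.3% and 74.96%.

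The gene expression library, which was sequenced separately from the receptor library, gave the same pair of V genes. A UMI of Trbv19 (chr6:41178589-41179048, build GRCm38.p6) was found in 178 of 180 TRBV4-TRBJ2-3 cells (98.9%, 96.0 to 99.9), with a lowest count of 0, a median of 7 and a highest of 44 UMIs per cell. In other cells whose TRBV contigs did not include TRBV19, which should lack it, the share was 2.68% (2.17 to 3.28) at a median depth of 2485.5 UMIs. Trbv4 (chr6:41059443-41059886) had a UMI in 132 of 180 (73.3%, 66.2 to 79.6), with a lowest count of 0, a median of 1 and a highest of 6. The share in other cells with TRBV contigs and none of TRBV4 was 3.34% (2.77 to 3.99) at a median depth of 2478.5 UMIs. Trbv4 is part of how the cells were chosen, so its level is a check of the barcodes and not a result.

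Levels are given in CPM, the UMIs of a gene summed over a group of cells and divided by all their UMIs, scaled to a total of 1000000. Trbv19 stood at 3362 CPM in the TRBV4-TRBJ2-3 cells and Trbv4 at 625, against 237 and 97.1 in the other autonomy cells. The 147 cells with no listed productive TRB had 3440 CPM of Trbv19 (3249 to 3639) and a UMI of it in 145 cells. The 30 cells with the productive TRBV19-TRBJ2-4 chain had 3380 CPM (2966 to 3835), so the ratio of the first to the second was 1.02 (0.885 to 1.17). Their Trbv4 levels were 600 (522 to 687) and 817 CPM (620 to 1056). The 10 cells in which neither TRBV19 contig was listed still had 44 Trbv19 UMIs, or 2305 CPM (1675 to 3094).

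Other Trbv genes were nearly silent in these cells, apart from Trbv13-2 and Trbv12-2. Of 35 Trbv genes in the table, 19 passed the minimum of 20 UMIs expected in the TRBV4-TRBJ2-3 cells, and 17 of these were neither Trbv4 nor Trbv19. Of the 17, 16 were at least 2-fold lower than in the other autonomy cells, a threshold that 4.14% of all 4031 genes over the minimum passed in that direction. Trbv1, Trbv5, Trbv13-3, Trbv17, Trbv20, Trbv26 and Trbv29 had 0 UMIs, where 3 UMIs would be 6.77 CPM. Trbv13-1 had 2 UMIs in 180 cells and 520 CPM in the others. Trbv19 supplied 72.3% of all Trbv UMIs in the TRBV4-TRBJ2-3 cells and Trbv4 13.4%. Trbv13-2 was the one exception, at 456 CPM against 836. It had a UMI in 60.6% of the cells (53.0 to 67.7), but also in 47.7% (46.0 to 49.4) of other cells whose contigs did not include TRBV13-2. Trbv12-2 likewise had a UMI in 15% (10.1 to 21.1) and in 16.8% (15.6 to 18.04) of other cells without a TRBV12-2 contig.

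**Figure D2:**
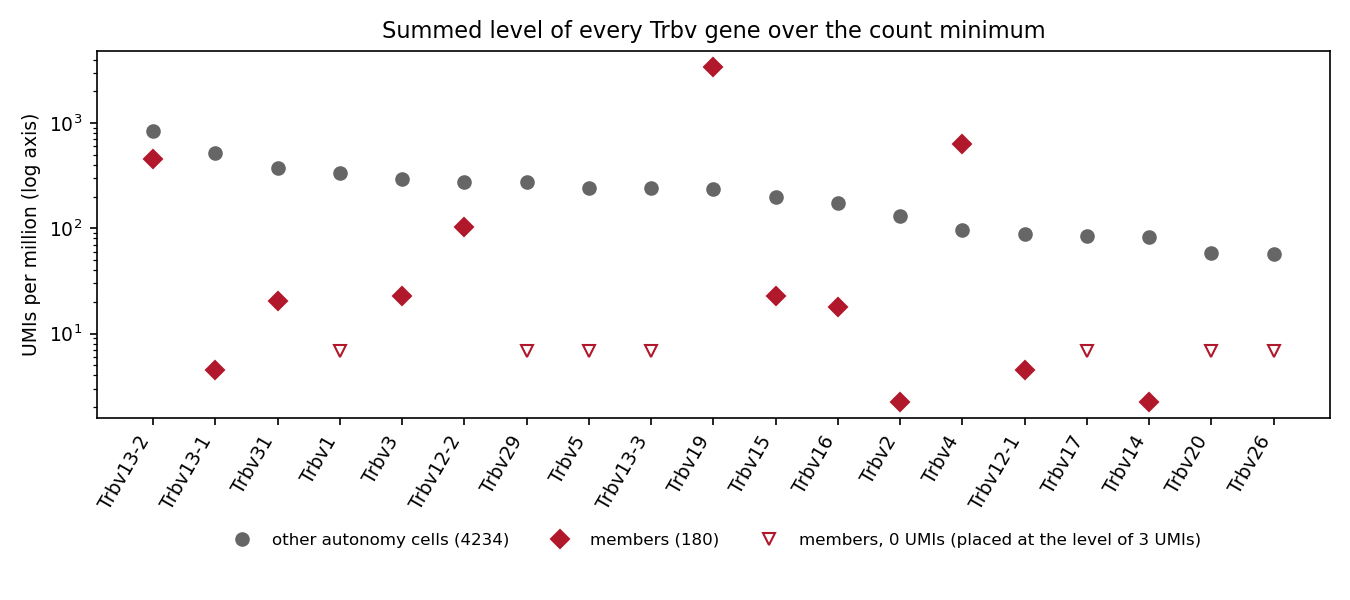
Level of each Trbv gene over the count minimum, in CPM on a log axis (y), in the TRBV4-TRBJ2-3 cells (members, diamonds) and the other autonomy cells (circles), in order of the latter; open triangles mark genes with 0 UMIs in members, drawn at the level of 3 UMIs, 6.77 CPM. Trbv19 at 3362 CPM and Trbv4 at 625 CPM are the 2 genes above the circles.

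The constant region genes went with the TRBC2 calls of the contigs. Trbc2 (chr6:41546730-41548181) was at 3506 CPM (3334 to 3685), with a lowest count of 1, a median of 8 and a highest of 36 UMIs per cell, against 1980 CPM in the other autonomy cells. The ratio was 1.77 (1.68 to 1.86), and 1.36 (1.29 to 1.43) against other cells weighted to the same shares of clusters. Trbc1 (chr6:41538219-41539665) was found in 5 of 180 TRBV4-TRBJ2-3 cells (2.78%) and in 1096 of 4234 others (25.9%). Its level was 51.9 CPM against 470 CPM, a ratio of 0.111 (0.0701 to 0.166), and 14 of its 23 UMIs were in 1 cell.

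Within a cell, the TRBV4 contig was recovered with fewer molecules than the TRBV19 contig. The unproductive TRBV4-TRBJ2-3 contig had 1 to 10 UMIs with a median of 3, and unproductive TRB contigs of the other cells also had a median of 3. The productive TRBV19-TRBJ2-4 contig had a median of 7.5 UMIs and the TRBV19-TRAJ50 contig one of 9, with a range of 1 to 48. The TRBV19-TRAJ50 contig had more UMIs than the TRBV4 contig in 124 of 143 cells, and TRBV19-TRBJ2-4 did in 26 of 30. Among the 28 other autonomy cells with the TRBV19-TRBJ2-4 chain, 21 had a Trbv4 UMI (75%, 55.1 to 89.3), and among the 47 with only the TRBV19-TRAJ50 contig 21 did (44.7%, 30.2 to 59.9). Both shares lay above the 3.34% of cells without a TRBV4 contig, but the 28 and the 47 cells were not filtered for TRBV4 contigs.

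A contig with a TRBJ2-5 segment but no V segment was a further mark. It was listed in 83 of 180 TRBV4-TRBJ2-3 cells (46.1%, 38.7 to 53.7), in 115 of 4234 other autonomy cells (2.72%, 2.25 to 3.25) and in 3.07% of others with another unproductive TRB. It was in 18 of the 47 other cells with only the TRBV19-TRAJ50 contig and in 10 of the 28 with TRBV19-TRBJ2-4. Contigs of TRBJ2-6 or TRBJ2-7 without a V segment were in 16.1% of the cells and 15.4% of the others, so the difference lay with TRBJ2-5.

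The alpha chains were not shared, as was so for nearly all other autonomy cells. A productive TRA chain was listed in 63 of 180 TRBV4-TRBJ2-3 cells (35.0%, 28.1 to 42.4), in 42.6% of the other autonomy cells (41.1 to 44.1) and in 40.6% of those with another unproductive TRB (36.4 to 45.0). Across 20 other clones, taken as groups of at least 30 cells that share a productive TRB chain, the share ran from 22.4% to 64.3% with a median of 41.2%. These clones were not fully separate, since 1 pair of clones shared most of its cells. Here and below, the shared cells enter each count and median over the 20 clones in both clones of that pair. The 69 productive TRA chains were 69 different ones, and 0 of them were found in another autonomy cell. The 1988 productive TRA chains of the other autonomy cells were 1978 different ones, and 18 of 1802 cells (0.999%) shared one. They used 42 TRAV and 32 TRAJ segments, led by TRAV4D-4 with 5 chains and TRAJ4 with 6. TRAJ segments are numbered towards the constant region in falling order, so that early joins use high numbers. The median TRAJ number was 24 (quartiles 9 and 32), and 22 (9 and 33) in the other cells. TRAJ numbers over 40 made up 14.5% of the chains (7.17 to 25.04) and 14.1% (12.6 to 15.7) in the others.

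Sex-linked transcripts were mostly of one kind. Y-linked genes (Ddx3y, Eif2s3y, Kdm5d and Uty) without Xist, the RNA that silences an X chromosome in females, were found in 64 of 180 cells, Xist without them in 4, and both in 0. The other autonomy cells had 870, 1777 and 25 of 4234. Ddx3y, Kdm5d and Uty were at 108, 42.9 and 42.9 CPM against 35.6, 13.2 and 7.02, while Eif2s3y had 2 UMIs and 4.52 CPM against 29.6. Summed Xist was 15.8 CPM against 378 CPM, a ratio of 0.0418 (0.0168 to 0.0861). Among the 20 other clones, 17 had over 90% of the cells with a single kind in that kind, 10 with Y-linked genes and 7 with Xist. Of the other cells with only the TRBV19-TRAJ50 contig, 18 of 47 had Y-linked genes alone and 3 had Xist alone.

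By their markers these were mostly non-dividing cells with both coreceptors and the recombination genes on. Cd8a had a UMI in 98.3% of the TRBV4-TRBJ2-3 cells and Cd4 in 91.7%, against 96.2% and 79.5% of the others. Clusters of the autonomy library were built without TCR segment, sex-linked, cell cycle, mitochondrial and ribosomal protein genes, and are given by number and leading genes. Of 14 clusters, 9 had Cd8a over 2000 CPM and Mki67, Itm2a and C1qa each under 100 CPM, thresholds chosen after seeing the data, and are called the Cd8a-high clusters here. They held 170 of 180 TRBV4-TRBJ2-3 cells (94.4%, 90.02 to 97.3) and 80.3% of the others (79.1 to 81.5). Among the 20 other clones this share ran from 60.3% to 97.6% with a median of 82.7%, and 3 clones lay above 94.4%.

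Within the Cd8a-high clusters the cells were unevenly spread. Cluster 3, led by Tle6, Zg16 and Tjp3, held 60 of 180 (33.3%, 26.5 to 40.7) and 7.96% of the others (7.16 to 8.82). In the 20 other clones cluster 3 held 0% to 31.7% of cells, with a median of 3.84%, so 0 of 20 lay above. Cluster 2, led by Insl5 and Slc7a11, held 21.1% and 16.1%, while cluster 1, led by Scn4b and Smoc1, held 11.1% (6.92 to 16.6) and 20% (18.8 to 21.2). Clusters 4 and 9 held 1 TRBV4-TRBJ2-3 cell each, against 8.97% and 3.66% of the others. At a clustering resolution of 0.5 the excess of the largest cluster was 1.15 times (0.983 to 1.35) in place of 4.19 times (3.33 to 5.27).

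The 10 cells outside the Cd8a-high clusters lay in 4 clusters. Of these, 6 were in cluster 10, led by Lyz2, Apoe and C1qb, which are macrophage genes, and 2 were in cluster 7, led by Nr4a1 and Itm2a, genes induced by receptor signalling. The remaining 2 were in cluster 11, led by Nkg7 and Itgae, and in cluster 12, led by histone genes of dividing cells, with 9531 and 16679 UMIs. Cluster 13, led by Cpa3 and H19, held 0 TRBV4-TRBJ2-3 cells and 2.88% of the others. No doublet caller was run. TRBV contigs of 3 or more different V segments, the TRBV19-TRAJ50 contig included, were listed in 4 of the 180 cells (2.22%) and in 44 of 4234 others (1.04%). Counted as contigs of any V segment, 3 or more were listed in 29 of the 180 (16.1%) and in 76 of the others (1.79%). Those 29 cells held 52 unproductive TRBV4-TRBJ2-3 contigs.

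**Figure D3:**
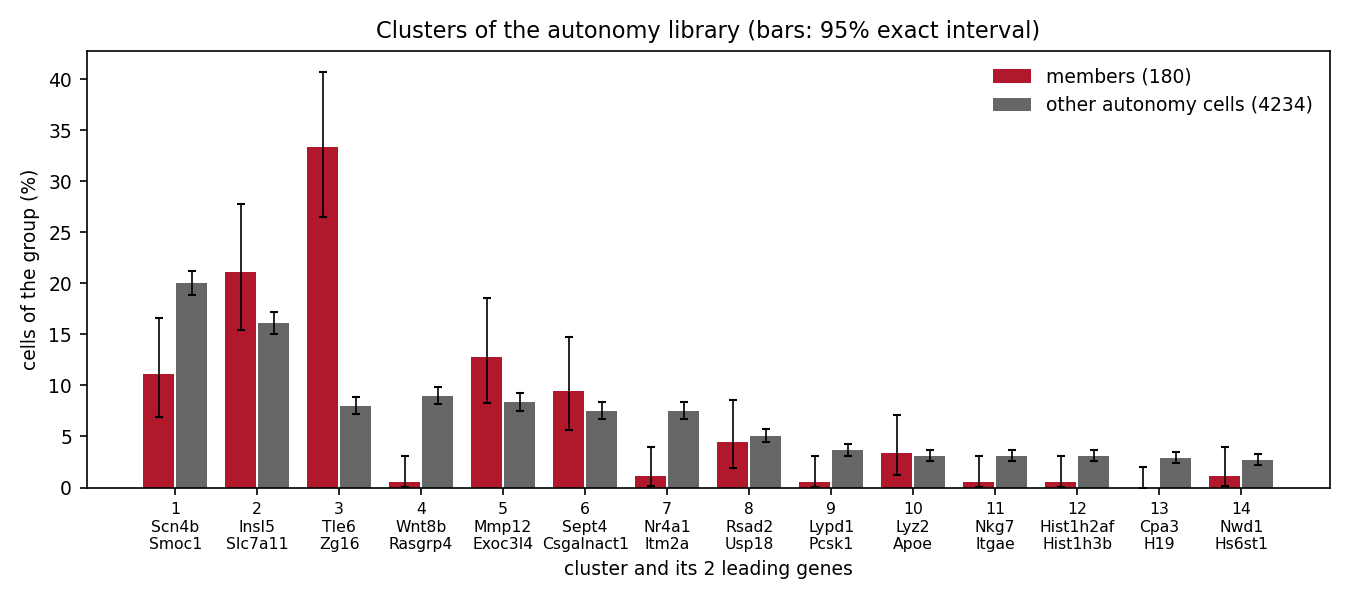
Percent of each group of cells (y axis) in each of 14 clusters of the autonomy library (x axis, with 2 leading genes each), for the TRBV4-TRBJ2-3 cells (members, red) and the other autonomy cells (grey); bars are 95% exact intervals. Cluster 3 holds 33.3% of members and 7.96% of the others, and clusters 11 to 13 hold 1, 1 and 0 members.

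Genes of the double positive stage were on the high side, with ratios from 1.05 to 1.83 for the 16 of the list, and most were near 1 once clusters were matched. Cd4 was at 1027 CPM (935 to 1126) against 560, a ratio of 1.83 (1.67 to 2.02), with a lowest count of 0, a median of 2 and a highest of 8 UMIs per cell. Cd8a was at 3387 against 2348 CPM, a ratio of 1.44 (1.37 to 1.52). Rag1, a subunit of the enzyme that cuts receptor genes, was at 1346 against 822 CPM, and Dntt, which adds bases at junctions, at 1623 against 1083. When the other cells were weighted to the same cluster shares, the ratios were 1.12 (1.02 to 1.23) for Cd4, 1.04 (0.987 to 1.09) for Cd8a, 0.919 (0.847 to 0.996) for Rag1 and 1.02 (0.950 to 1.10) for Dntt. Of the 16 resting double positive genes, all over the minimum, 0 were 2-fold apart, and their median log2 ratio was 0.54, against 0.12 over all 4031 genes. With cluster weights it was -0.01, against 0.01 over all genes.

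Ptcra and Dtx1, of the pre-T cell receptor and Notch pathway, were higher against all other cells, and most of that difference was gone with matched clusters. These genes were not barred from the clustering, and the clusters differed in them. Cluster 5 had 1531 CPM of Ptcra and 801 CPM of Dtx1, and cluster 1 had 322 and 161 CPM. Matching can therefore take away part of such a difference by itself. Notch is the receptor that commits progenitors to the T lineage, and it falls off as cells become double positive. Ptcra, which encodes the pre-T alpha chain, was at 691 CPM (616 to 773) against 370, a ratio of 1.87 (1.66 to 2.09), with a UMI in 66.7% of the cells against 45.3% of the others. Dtx1, a Notch target, was at 443 CPM (383 to 509) against 239, a ratio of 1.85 (1.60 to 2.14). Inside the Cd8a-high clusters alone the ratios were 1.55 (1.37 to 1.74) for Ptcra and 1.45 (1.25 to 1.68) for Dtx1, and with the same cluster shares 1.13 (1.003 to 1.26) and 1.16 (1.003 to 1.33). Thinned to 1000 UMIs per cell, Ptcra had a ratio of 1.82 and Dtx1 one of 1.17. Notch1 itself was at 237 against 187 CPM, 1.26 times (1.03 to 1.54), and 0.848 times (0.693 to 1.03) with cluster weights. Il2ra, a marker of the earlier DN3 stage, was at 147 and 119 CPM, a ratio of 1.23 (0.944 to 1.57), and 0.902 (0.696 to 1.15) with cluster weights. Of 6 Notch receptors and targets over the minimum, 0 were at least 2-fold higher and 1, Myc, was at least 2-fold lower. Their list summed to 1709 CPM, 1.47 times that of the others (1.37 to 1.58) and 1.06 times with cluster weights, and 3 of the 20 other clones lay above it, with a clone median of 882.

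Cycling genes were low. Mki67, a marker of dividing cells, had 5 UMIs in all, or 11.3 CPM against 118, a ratio of 0.0961 (0.0312 to 0.225), and Top2a was at 38.4 against 226 CPM. Ccnb2 and Kif11 had 0 UMIs, against 92.3 and 46.6 CPM, where 3 UMIs would be 6.77 CPM. Ube2c had 1 UMI against 155 CPM. Of 30 G2/M genes over the minimum, 19 were at least 2-fold lower, and of 22 S phase genes 12 were, against the 4.14% of all genes given above. Their medians were -2.15 and -1.19 on the log2 scale. With cluster weights 8 of the 30 and 0 of the 22 were still at least 2-fold lower, against 1.19% of all 4031 genes, with medians of -0.41 and -0.005. In the Cd8a-high clusters 0 of 9 G2/M genes over the minimum were, with a median of 0.18. The weights were shares of UMIs, and the 1 cell in cluster 12 held 16679 of the 442924 UMIs. The summed G2/M genes were 0.520 times those of the others (0.492 to 0.550), but 0.988 times with the same cluster shares, 0.879 times after thinning to 1000 UMIs, and 1.11 times (1.04 to 1.18) within the Cd8a-high clusters. The 2874 CPM of G2/M genes also lay at the median of the other clones, 2869, with 10 clones above. Of 20 ribosomal protein genes 3 were at least 2-fold lower (Rpl3, Rps2 and Rps12), with a median of -0.84, and 0 were with cluster weights, with a median of -0.15.

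Among genes of positive selection and maturity, those that respond to receptor signals were low. The summed lists were closer to the others, with most post-selection UMIs from Ccr9. Itm2a, Cd69, Egr1 and Nr4a1, which respond to receptor signals, were the 4 of 9 post-selection genes at least 2-fold lower, against 4.14% of all genes. The summed post-selection list was 0.958 times that of the others (0.897 to 1.02) and 1.16 times with the same cluster shares, and its 2147 CPM lay near the clone median of 2310. This sum rested mostly on 1 gene, with 715 of its 951 UMIs from Ccr9, at 1614 against 978 CPM, a ratio of 1.65 (1.53 to 1.78). The median log2 ratio of the 9 genes was -0.95, and 0.03 with cluster weights. Itm2a had 9 UMIs, or 20.3 CPM against 217, a ratio of 0.0938 (0.0429 to 0.178), and 17 of the 20 other clones were above the level of the TRBV4-TRBJ2-3 cells. With the same cluster shares Itm2a stayed lower, at 0.415 (0.190 to 0.787), while Cd69 was at 0.848 (0.438 to 1.48). Within the Cd8a-high clusters Itm2a had 3 UMIs and a ratio of 0.360 (0.0736 to 1.07), an interval that includes 1. Cd5, which scales with receptor signalling, was at 133 against 211 CPM, 0.630 times (0.478 to 0.815). The sign of Cd5 turned to 1.53 times (1.16 to 1.97) with cluster weights, and was 0.703 times (0.487 to 0.985) within the Cd8a-high clusters. Bcl2, a survival factor, was at 11.3 against 57.9 CPM, and Klf2, which controls exit from the thymus, at 15.8 against 75.5 CPM. Ccr7, a receptor of mature thymocytes, had 0 UMIs against 44.3 CPM. Of 8 mature single positive genes over the minimum 4 were at least 2-fold lower before cluster weights and 0 after. Their list summed to 856 CPM, 0.754 times that of the others (0.679 to 0.835) and above 14 of the 20 other clones.

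**Figure D4:**
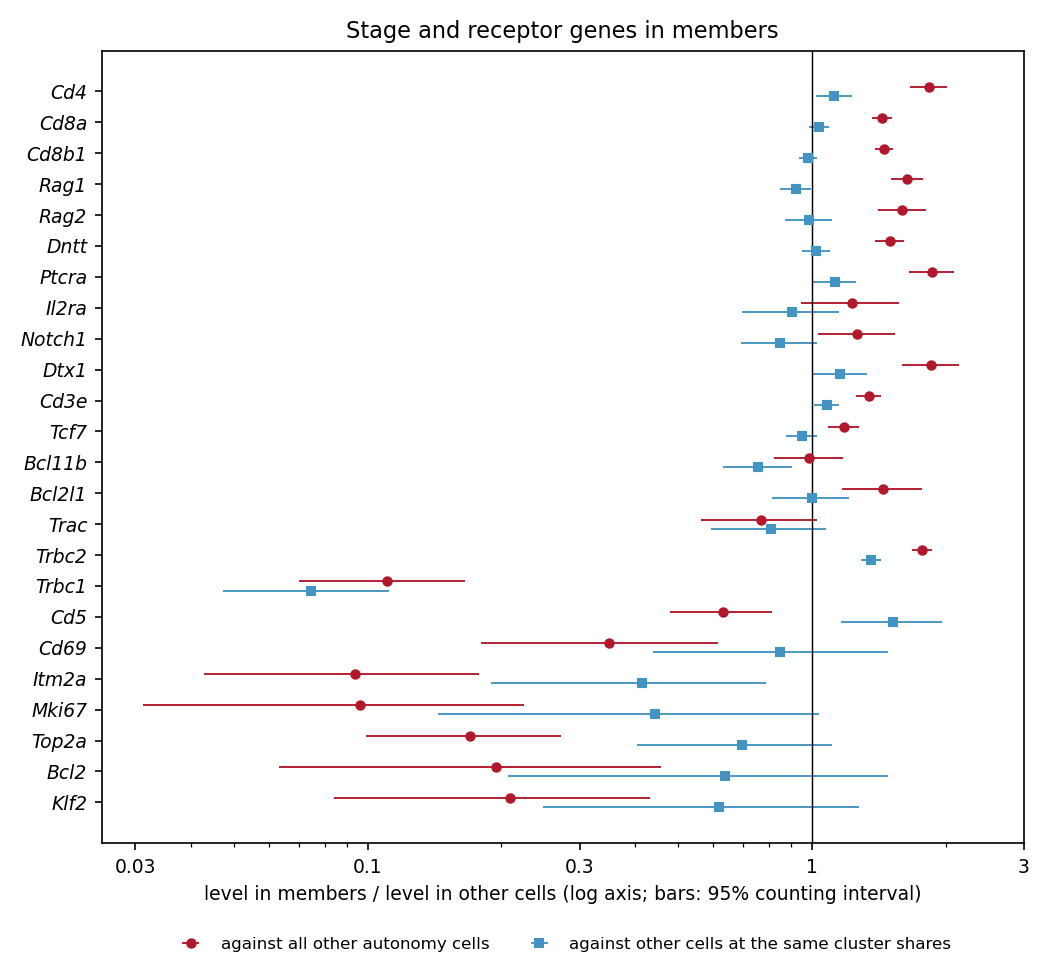
Level in the TRBV4-TRBJ2-3 cells divided by the level in other cells (x axis, log scale) for 24 stage and receptor genes, against all other autonomy cells (red circles) and against other cells weighted to the same cluster shares (blue squares); bars are 95% counting intervals. Cd4 moves from 1.83 to 1.12 and Cd8a from 1.44 to 1.04, while Trbc2 stays at 1.36 and Trbc1 at 0.0745.

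Most defining markers of other cell types were at or near 0, and a few shared genes carried the rest. The 11 macrophage and granulocyte genes had 86 UMIs, of which 81 were in the 6 cells of cluster 10, and their level was 194 CPM against 195 in the other cells. In the Cd8a-high clusters it was 12.7 against 20.9 CPM. Tcrg-C1, a gamma constant region, had 0 UMIs against 17.4 CPM, and Trdc, the delta constant region, had 1. The next 3 lists rested mostly on 1 gene each. The B lymphocyte list was at 562 against 412 CPM over 118 of the 180 cells, but 233 of its 249 UMIs were Ighm, a heavy chain gene, and 5 of its 7 genes were at 0. The dendritic list was at 422 against 355 CPM (395 against 240 in the Cd8a-high clusters), with 178 of 187 UMIs from Bst2, which interferon also induces, and 4 of its 9 genes at 0. The innate lymphoid and NKT list was at 190 against 367 CPM, with 70 of 84 UMIs from Gzma and 7 of 12 genes at 0. The 6 erythroid genes had 0 UMIs in both groups. What part these transcripts have in other results was not tested. Nkg7, a granule gene of killer lymphocytes, had 2 UMIs.

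Over all genes, few stood apart once clusters were matched, though the clusters were built from the expression of these same cells. Of 4031 genes over the minimum, 30 were at least 2-fold higher than in the other autonomy cells (0.744%) and 167 at least 2-fold lower (4.14%). Of the 167, 31 were in the cell cycle lists and 17 were receptor segments. With the same cluster shares, 6 genes were at least 2-fold higher (0.149%) and 48 lower (1.19%), and 4 of the 30 and 46 of the 167 were still 2-fold apart. Within the Cd8a-high clusters alone 7 of 3927 genes were at least 2-fold higher (0.178%) and 32 lower (0.815%). The 4 of the 30 were Trbv19, Trbv4, 5830405F06Rik and Fbln2. The other 2 of the 6, AW112010 and Fbxo5, were at 1.10 and 0.514 times the other cells without the weights.

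5830405F06Rik, a gene known only by a clone name, was the highest of the genes that are not receptor segments. Its row in the deposited table lies between those of Trbv3 and Trbv4. It was at 815 CPM (733 to 904), with a lowest count of 0, a median of 2 and a highest of 11 UMIs per cell, against 72.6 CPM in the other cells. The ratio was 11.2 (9.95 to 12.7) and 9.50 (8.55 to 10.5) with cluster weights. A UMI of it was in 86.7% of the TRBV4-TRBJ2-3 cells and 12.7% of the others. In other autonomy cells with a TRBV4 contig it was at 654 CPM (601 to 711), in those with TRBV5 at 260 CPM (231 to 292), and in those with neither at 18.9 CPM (16.7 to 21.4). The turnover library gave 588, 219 and 13.4 CPM for the same 3 groups. The one clone above the TRBV4-TRBJ2-3 cells, at 1216 CPM, was TRBV4-TRBJ2-5, and TRBV5-TRBJ2-4 followed at 375 CPM. The gene thus went with TRBV4 in both libraries. The other cells with only a TRBV19-TRAJ50 contig had 201 CPM (130 to 296) and those with TRBV19-TRBJ2-4 had 356 CPM (234 to 518).

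Fbln2, which encodes the matrix protein fibulin 2 (chr6:91212460-91272540), was next. It was at 318 CPM (268 to 375), with a lowest count of 0, a median of 1 and a highest of 5 UMIs per cell, against 92.4 CPM in the other cells. The ratio was 3.44 (2.88 to 4.10), 2.36 (1.99 to 2.79) with cluster weights and 2.47 within the Cd8a-high clusters. It was spread over the cells, with a UMI in 52.2% against 21.99% of the others. All 20 other clones were lower, from 0 to 282 CPM with a median of 91.4, but 1 of 47 clones of at least 15 cells was higher, at 485 CPM. The other cells with TRBV19-TRBJ2-4 had 264 CPM (161 to 407) and those with only the TRBV19-TRAJ50 contig 265 CPM (182 to 372). In turnover it was at 21.7 CPM over all cells.

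Gm525 (chr11:89073841-89093064), a protein-coding gene known by its model number, was at 1007 CPM (916 to 1105) against 397. The ratio of 2.54 (2.30 to 2.79) went to 1.37 (1.24 to 1.499) with cluster weights, and turnover had 63.8 CPM. Its level differed widely between clones, from 46.8 to 1121 CPM, and 1 of the 20 lay above. The further genes among the 12 highest, Slc6a19, Zfyve28, Cldn4, Nron, Patj, Gm38405, Art1, Tmem191c and Emid1, had ratios from 2.53 to 2.16 and from 1.11 to 1.61 with cluster weights. Each of those 9 was inside the range of the other clones.

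Among the lowest genes that are not receptor segments, most were cycle genes or genes of rarer cell types. Kif11, Ccnb2, Ube2c, Hist1h2af, Nusap1 and Cdca3 belong to division, Nr4a1 to receptor signalling, and Ctsw, Nkg7 and Plac8 are lymphocyte genes, while Psat1 makes serine and Gm4316 is known by its model number. Each of those 12 had 0 to 2 UMIs. Mgst2, Prep and Cant1, chosen after their values were seen, kept their difference when clusters were matched. Mgst2, a glutathione transferase, had 14 UMIs and 31.6 against 97.7 CPM, a ratio of 0.324 (0.176 to 0.545), and 0.267 (0.146 to 0.447) with cluster weights. Prep, a peptidase, was at 47.4 against 132 CPM and at 0.265 (0.164 to 0.405) with cluster weights. Cant1, a nucleotidase, was at 24.8 against 51.8 CPM and at 0.386 (0.193 to 0.690). Mgst2 and Cant1 were below all 20 other clones, whose lowest levels were 37.9 and 25.5 CPM, though 2 and 3 of the 47 clones of at least 15 cells were lower still.

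Set beside the 20 other clones, of 30 to 191 cells, the TRBV4-TRBJ2-3 cells were above every clone in 61 of 4031 genes (1.51%) and below every clone in 16 (0.397%). Of the 61, 39 also had an interval above 1 with cluster weights, and of the 16, 13 had one below 1. Besides Fbln2 the 61 held Trbc2, with 3506 CPM against a highest clone of 2469, Cd4, with 1027 against 1014, and the interferon-induced GTPases Gbp8 and Igtp, with 354 against 351 and 345 against 325 CPM. These margins were mostly small, and against 47 clones of at least 15 cells, 5 had more Trbc2, 8 more Cd4, 2 more Gbp8 and 3 more Igtp. Interferon response genes as a list were at 2364 CPM, above 18 of the 20 clones, with 0 of 13 genes over the minimum 2-fold apart. Bst2, an interferon-induced membrane protein, was at 402 against 234 CPM and at 1.56 times (1.34 to 1.81) with cluster weights. Isg15, an interferon-induced ubiquitin-like protein, was at 158 against 215 CPM.

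**Figure D5:**
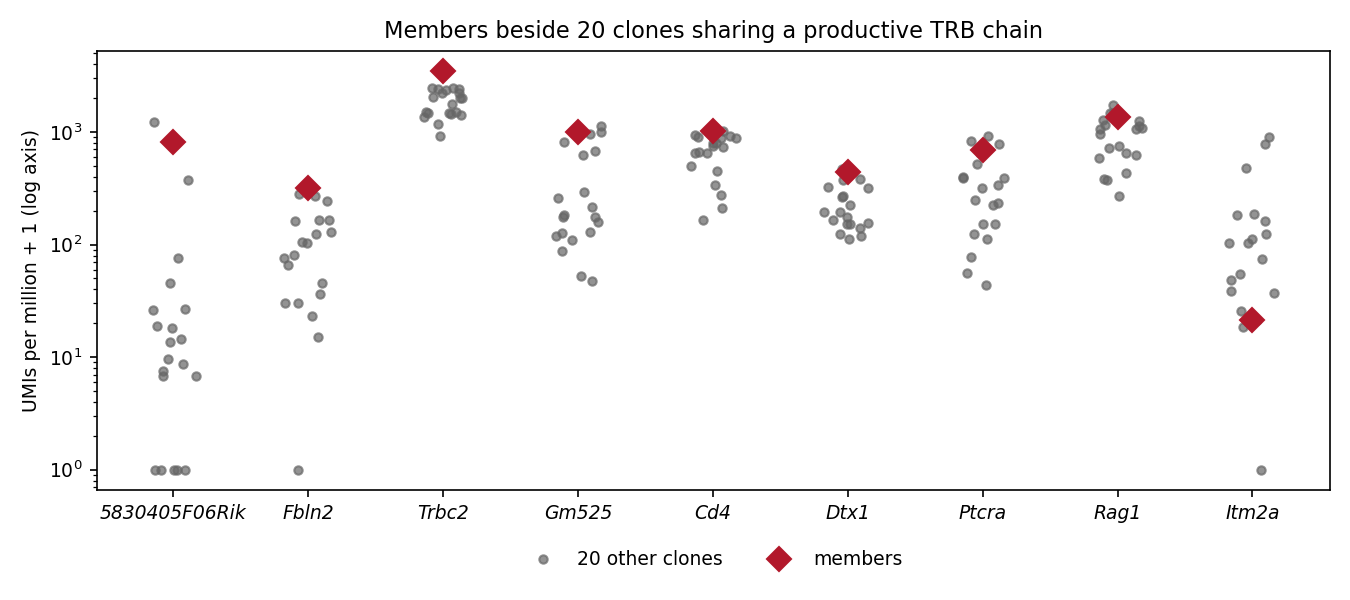
Level of 9 genes (x axis) in CPM plus 1 on a log scale (y axis), in the TRBV4-TRBJ2-3 cells (members, diamonds) and in each of 20 other autonomy clones of at least 30 cells (circles, spread sideways at random). Fbln2, Trbc2 and Cd4 lie above every circle, 5830405F06Rik below the TRBV4-TRBJ2-5 clone alone, and Itm2a below 17 of 20.

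Split by their other chains, the cells had similar levels of Cd4, Ptcra and Rag1, while Cd5, Itm2a and other genes differed in the TRA split. Of 1486 genes with at least 10 UMIs expected in the smaller group, 5 were at least 2-fold higher (0.336%) and 35 lower (2.36%) in the 30 cells with TRBV19-TRBJ2-4 than in the 147 with no productive TRB. With a productive TRA against none it was 49 higher (1.49%) and 81 lower (2.46%) of 3296, and 21 higher (0.745%) and 42 lower (1.49%) of 2817 within the Cd8a-high clusters. Between the 30 cells with TRBV19-TRBJ2-4 and the 147 with no productive TRB, Cd4 was at 1112 (881 to 1386) and 1033 CPM (930 to 1145), Ptcra at 718 (535 to 944) and 699 (615 to 792), and Fbln2 at 352 (228 to 520) and 326 (269 to 391). Cells with a productive TRA chain and cells without one had 982 (835 to 1148) and 1053 CPM (937 to 1180) of Cd4 and 1380 and 1326 CPM of Rag1. Of the cells with a productive TRA 88.9% were in the Cd8a-high clusters, and of those without one 97.4%. Cd5 was at 224 and 81.6 CPM, a ratio of 2.74 (1.58 to 4.85) with 16 of its 59 UMIs in 1 cell, and at 2.92 (1.42 to 6.21) within the Cd8a-high clusters. Itm2a had 8 UMIs and 1 UMI, a ratio of 14.0 (1.88 to 622), and 3.89 (0.203 to 230) within the Cd8a-high clusters. The intervals of Cd69 (0.670 to 9.81) and Bcl2 (0.694 to 345) included 1. Several differences of the TRA split came from single cells: 57 of 57 S100a6 UMIs were in 1 cell, 405 of 572 Hist1h2ap UMIs in another, and the Cd8a-high clusters had 0 S100a6 UMIs and a Hist1h2ap ratio of 1.44 (1.03 to 2.004). Mcm6, a replication gene, had 1 UMI with a productive TRA and 30 UMIs in 14 cells without, 15 of them in 1 cell, and a ratio of 0.130 (0.00308 to 0.844) within the Cd8a-high clusters.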

How the data were processed

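Each condition had 1 gene expression table of UMI counts per gene and cell and 1 table of V(D)J contigs with their UMI counts, segment calls and productive calls. The authors made these counts from reads before they were deposited: the tools named per the submitters' processing notes are Cell Ranger 3.0.2 and Seurat 3.1.3.9002, and the build is mm10. All 11821 deposited autonomy contigs were marked as cells and as high confidence. How cells were called, which annotation was counted and which receptor reference served are not given in the sources used here. Positions come from RefSeq for GRCm38.p6, the build that mm10 names, where 25166 of 31053 symbols were found. The authors' tables held 4587 autonomy and 4374 turnover barcodes with 16388810 and 20163286 UMIs.

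The cells, the gene lists and the tests were chosen with earlier results of these data known. Cells with at least 1000 UMIs were kept. UMIs were summed over cells and divided by all UMIs of the group, and ratios have exact conditional binomial 95% intervals, or Poisson ones against cluster-weighted levels. Shares have exact Clopper-Pearson intervals. A level of 0 was read against 3 UMIs. Counting covers molecules of 1 library per condition, so no p was computed. Genes with at least 20 UMIs expected in the 180 cells were compared, and a 2-fold difference was called. The autonomy library alone was clustered by the Leiden method (resolution 1) on a graph of 15 neighbours, built from 30 components of the 2000 most variable genes. For matched clusters, the levels of the other cells were averaged with the share of the UMIs of the 180 cells that lay in each cluster. A large cell therefore weighs more than a small one. Clusters were built from the expression of these same cells, so matching can take away part of a difference in genes that shape them. Clones were groups of at least 30 cells that shared a productive TRB chain, 20 in all after leaving out 2 that held any of the 180 cells. The 20 clones held 1071 different cells. Because 1 pair of clones shared most of its cells, counts of clones are not counts of separate groups. The genes named were the 12 highest and the 12 lowest ratios with an interval that left out 1, receptor segments, mitochondrial and sex-linked genes left out, with fixed stage and receptor genes, Trbv4 and up to 4 genes of each list. Trbv19 and the genes said to be so were chosen after their values were seen. The code was tested on simulated counts. The tools were scanpy 1.11.5, leidenalg 0.10.2, scipy 1.17.1, numpy 2.4.6, pandas 2.3.3 and matplotlib 3.10.9 under Python 3.11.15, and edgeR 4.0.16 under R 4.3.3 for normalization factors only.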

Additional observations from a re-analysis of the deposited data

How the results depend on the processing

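No paired analysis was possible because each condition had 1 library and the comparison was between cells of the autonomy library. The 180 cells were the same under all alternatives but one: contigs with at least 2 UMIs gave 150, of which 23.3% had a listed productive TRA in place of 35%. The count of genes at least 2-fold higher, 30 as reported, was 63 against other cells with another unproductive TRB, 6 with matched clusters, 5 after thinning to 1000 UMIs, 10 with TMM factors (a scaling that discounts extreme genes) and 7 in the Cd8a-high clusters. With a minimum of 10 expected UMIs it was 75, with 50 it was 7 and with no minimum 983. The count of genes at least 2-fold lower, 167 as reported, was 48 with matched clusters, 33 after thinning, 32 in the Cd8a-high clusters, 311 and 63 with minimums of 10 and 50, and 773 with no minimum. The summed G2/M ratio of 0.520 was 0.4005 against other cells with another unproductive TRB, 0.988 with matched clusters, 0.879 after thinning, 0.462 with TMM factors and 1.11 in the Cd8a-high clusters. The excess in the largest cluster, 4.19 times, was 1.15 times at a resolution of 0.5 and 3.96 times at 2. Against 47 clones of at least 15 cells, 0 genes were above every clone and 0 below every clone in place of 61 and 16, and against the 2 clones that share an unproductive chain 1413 and 703 were. The number and the size of the clones differed together between these settings, and the cause was not tested. Of 116 named genes, 30 were on the other side of 1 with matched clusters, 24 of them from an interval that left out 1, and for 3 (Btg2, Cd5 and Rag1) the new interval left out 1 as well. Among genes 2-fold apart as reported, Il7r turned to 1.52, Ms4a4b to 1.43 and Rrm2 to 1.38 with matched clusters, and Rrm2 to 1.08 and Top2a to 1.16 in the Cd8a-high clusters, each from a ratio under 1 and with an interval that then included 1, and the cause was not tested. Without the other cells that hold a TRBV19 contig, 115 of the 116 moved by less than their interval. The Cd8a-high clusters, the exclusion of TRBV19 cells and the split by TRA chain were chosen after seeing the data. At this depth, genes under 20 expected UMIs in the 180 cells could not be compared.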

Other observations

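Apart from the receptor genes, several summed lymphocyte programmes that the labels do not name were close to those of the other autonomy cells once clusters were matched. The interferon response list was not, at 1.08 times the others (1.02 to 1.15) and 1.24 times with matched clusters. The summed MHC class I genes, which display peptides on the cell surface, were 0.95 times those of the others and 1.01 times with matched clusters. Of 11 genes over the minimum 0 were 2-fold apart. Of 11 T lineage factors 0 were 2-fold apart, although Bcl11b, which holds T cell identity, was at 0.987 times (0.822 to 1.18) against all others, 0.758 times (0.632 to 0.901) with matched clusters and lower still in the 30 cells with TRBV19-TRBJ2-4, at 141 CPM against 326 CPM in the 147 without a productive TRB. Of 11 glycolysis genes 1 was at least 2-fold lower, Tpi1, with 5 UMIs and 11.3 against 85.03 CPM, and the summed ratio of 0.759 went to 0.974 with matched clusters. Of 9 interleukin-7 receptor and STAT5 genes 1 was at least 2-fold higher, Socs3, an inhibitor of cytokine signals, at 341 against 165 CPM, and 1.04 times with matched clusters. Aqp11, a water channel, was at 1495 against 780 CPM, just above the highest of the 20 clones at 1493, and was chosen after its values were seen.

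The 75 other autonomy cells with a TRBV19 contig of either kind were near the 180 cells in Gm525, Ptcra and Dtx1. They were further from them in 5830405F06Rik, and the 28 with TRBV19-TRBJ2-4 also in Cd5. Gm525 was at 1067 CPM (848 to 1327) in the 28 with TRBV19-TRBJ2-4 and 868 CPM (712 to 1048) in the 47 with only the TRBV19-TRAJ50 contig, beside 1007 CPM in the 180 and 397 CPM in all others. Their Trbv19 levels were 3940 and 2611 CPM. Ptcra was at 619 and 659 CPM beside 691 CPM in the 180, and Dtx1 at 474 and 426 CPM beside 443 CPM. Cd5 was at 408 CPM (278 to 580) and 129 CPM (73.5 to 209) beside 133 CPM (101 to 172) in the 180, and 5830405F06Rik at 356 and 201 CPM beside 815. The Cd8a-high clusters held 26 of 28 and 42 of 47 of them, and cluster 3 held 4 and 13. Of the 28, 11 had Y-linked genes alone and 1 had Xist alone. These cells were not among the 180, since no unproductive TRBV4-TRBJ2-3 contig with the shared CDR3 was listed for them. Cells with other TRBV4 contigs were not excluded, and whether the 75 cells carry the shared rearrangement was not tested.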
